A study of Mus musculus with 18 samples.

Results

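Bone marrow macrophages that had taken iron oxide particles before a challenge with lipopolysaccharide (LPS, a component of the outer wall of Gram-negative bacteria) were compared with macrophages challenged with LPS alone. The comparison set 3 arrays labelled SPIO-LPS against 3 arrays labelled LPS, out of 18 arrays in the series. It covered all 12393 genes that could be named, each read from its brightest probe set by the mean of the 18 arrays, so that no gene entered it because of its response. All cells came from C57BL/6 mice 4 to 6 weeks old, and the labels name no engineered allele. Femoral marrow was grown in medium with 10% fetal bovine serum and 20% medium conditioned by L929 cells, a fibroblast line that secretes the macrophage growth factor CSF1. Adherent cells were plated again for the treatments, in medium for which the labels list serum and no conditioned medium. The SPIO-LPS cultures stood for 24 h with iron oxide particles of 33 nm, sonicated in serum beforehand, at a concentration that the study's design text gives as 25 mg/ml, a unit that could not be checked. They were washed and then received 10 ng/ml of Escherichia coli LPS for 4 h, and the LPS cultures passed through the same steps in medium without particles. Further groups of 3 were CON (medium alone), SPIO (iron oxide, then medium without LPS), Silica (amorphous silica of 50 nm, then medium) and Silica-LPS (silica, then LPS). For CON no times of pretreatment or second medium are given, so whether it passed through the same steps is not stated. The comparison of SPIO with CON and the interactions below use CON as their baseline. Replicates are labelled as biological, but whether each was a different mouse is not stated, and p-values here reflect how much these cultures varied. No group received dissolved iron, and the labels do not give the coating of the particles.

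LPS is sensed by macrophages through Toll-like receptor 4 and its helper CD14, and the signal runs through NF-kB to cytokine and chemokine genes and through interferon beta to a second wave of interferon-stimulated genes. Iron oxide taken up by phagocytosis reaches the lysosome, where acid dissolves it, and the released iron is stored in ferritin or exported by ferroportin. Oxidants release the transcription factor NRF2 from its inhibitor KEAP1, heme releases the repressor BACH1 from DNA, and both steps open genes of glutathione synthesis and heme breakdown.

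The arrays of the LPS and SPIO-LPS groups correlated at 0.9971 to 0.9977 within a group and at 0.9913 to 0.9927 between the groups, and no array stood apart. For a typical gene, the log2 difference between groups of 3 carried a standard error of 0.080, and its 95% interval reached 0.17 to either side (medians over genes). All 16 measured macrophage markers lay above 7 on the log2 scale in LPS arrays, whose values ran from 2.03 to 14.62. None of the 8 dendritic cell or 7 T and NK cell markers did, but 12 of 14 fibroblast markers and 7 of 12 neutrophil markers did. The mean signal of the fibroblast markers was 9.74, 9.72 and 9.80 in LPS and 9.23, 9.25 and 9.28 in SPIO-LPS, and that of the neutrophil markers was 8.65, 8.68 and 8.70 against 8.34, 8.33 and 8.39. The erythroid markers, 2 of 7 of which lay above 7, went from a mean of 6.245 ± 0.034 (SD, n = 3) to 5.93 ± 0.082. Of these 3 were lower and 1 higher, beside 14.6% and 18.2% of all genes, with the carbonic anhydrase gene Car2 among the lower ones at -1.28. The calls of Klf1 and Epor (lower) and Tfrc (higher) were each lost under some alternative fit. In these bulk samples, fewer cells of a type and less RNA per cell cannot be told apart. RNA integrity was read from control probe sets at both ends of a transcript: the 3′ signal of Gapdh exceeded its 5′ signal on the log2 scale by 0.52 ± 0.050 (SD, n = 3) in LPS and 0.40 ± 0.064 in SPIO-LPS, and the excess of Actb moved the other way, from 0.38 ± 0.053 to 0.52 ± 0.014. An exact two-sided permutation test gave p = 0.1 for each of these differences between the groups, which is the smallest p that 3 arrays against 3 allow.

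Iron oxide before LPS raised ferroportin and most genes of the NRF2, lysosome and cholesterol synthesis lists, and it lowered Il10, the chemokines Ccl2, Ccl7 and Ccl12, most MHC class II genes and most genes of the cell cycle. Among probe sets with a single gene symbol, to which every rank here refers, the iron exporter gene Slc40a1 rose most, 6.93-fold, followed by Gsta3, Bex1, Tent5c and Srxn1. Among the falls, Adgre4 came first at 4.76-fold, followed by Tnfrsf11b, Ppbp, Il10 and Fgl2. Of 12393 genes, 2254 (18.2%) were higher and 1804 (14.6%) were lower at an adjusted p below 0.05 by limma, together 32.7% of those tested. Most of these changes were small: the median size of a called difference was 0.31 on the log2 scale, or 1.24-fold, and 77.5% were below 0.5. Changes of at least 2-fold were found for 69 genes upward (0.557%) and 80 genes downward (0.646%), and of these 9 rose and 1 fell by at least 4-fold. The arrays of the groups did not overlap for 5011 genes (40.4% of those tested), of which 3874 were called. The 15 largest rises and 15 largest falls were picked among these 3874, so their lack of overlap was set by the choice. The median of all genes was 0.01, and differences given here without a fold are on the log2 scale. With only the 6 compared arrays in the fit, 1477 rather than 2254 genes were higher.

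**Figure D1:**
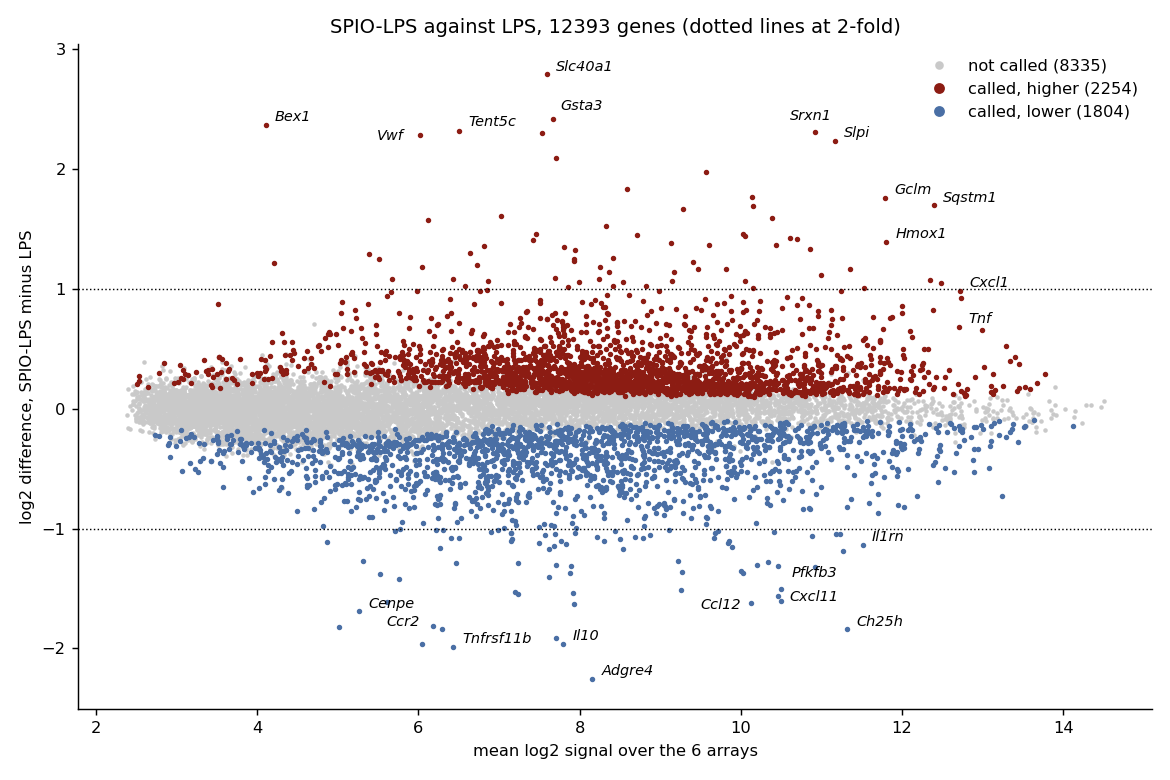
Log2 difference between SPIO-LPS and LPS (vertical axis) against the mean log2 signal over the 6 arrays (horizontal axis) for 12393 genes. Red points were called higher (2254), blue points lower (1804), grey points were not called, and dotted lines mark 2-fold; ferroportin (Slc40a1) lies highest at 2.79 and Adgre4 lowest at -2.25.

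Ferroportin is the only known iron exporter of mammalian cells. Its gene Slc40a1 read 6.34, 5.92 and 6.35 on the LPS arrays and 9.01, 8.92 and 9.06 on the SPIO-LPS arrays, so every pretreated culture lay far above every culture that had LPS alone. The log2 difference was 2.79 ± 0.095 (SE, 3 arrays per group), with an adjusted p of 8.48e-12 by limma. Without LPS the gene stood at 9.84 ± 0.070 in CON and 10.82 ± 0.043 in SPIO, which places the SPIO-LPS level below CON and well above LPS. The iron oxide effect was larger with LPS than without it, by 1.82 ± 0.13 on the log2 scale (interaction, adjusted p = 3.54e-07 by limma). Silica before LPS left Slc40a1 at a mean of 6.11, a difference from LPS of -0.09 (adjusted p = 0.694 by limma).

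The rest of the iron and heme list moved in both directions. Of 36 measured genes 15 were higher, 10 were lower and 11 were not called, with a median of 0.09, beside 18.2% higher and 14.6% lower over all genes. Heme oxygenase Hmox1, which breaks heme down and frees its iron, read 11.03, 11.09 and 11.19 in LPS and 12.49, 12.43 and 12.58 in SPIO-LPS, a rise of 2.63-fold without overlap (adjusted p = 9.4e-10 by limma). The heme transporter Slc48a1, which carries heme out of the phagolysosome, rose by 0.87, and biliverdin reductase Blvrb by 0.76. Mcoln1, a lysosomal channel that lets iron and calcium out, rose by 0.79, and the phagosomal metal pump Slc11a1 (NRAMP1) by 0.59. Among the lower genes, ceruloplasmin Cp, the plasma ferroxidase that accepts iron from ferroportin, read 11.55, 11.48 and 11.71 in LPS and 10.25, 10.25 and 10.29 in SPIO-LPS. It thus fell 2.49-fold in the same cultures in which the exporter rose. Haptoglobin Hp, which binds free hemoglobin, differed by -0.83, and lipocalin Lcn2, which binds bacterial iron carriers and is also a neutrophil marker, by -0.78. The transferrin receptor Tfrc, the port of entry for transferrin iron, rose only 1.12-fold (adjusted p = 0.018 by limma), a call lost under 7 of 14 alternatives, and without LPS its rise was 0.64. Ferritin heavy chain Fth1 stood at 14.46, 14.47 and 14.48 against 14.53, 14.53 and 14.54, near the top of the scale, where differences are compressed, and was not called (adjusted p = 0.165 by limma); Ftl1 was not analysed here.

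Genes of the NRF2 program were among the largest rises. Of 40 measured members 29 were higher, 4 were lower and 7 were not called, beside 18.2% and 14.6% of all genes, and their median difference was 0.62. Both subunits of glutamate-cysteine ligase, which makes the first peptide bond of glutathione, rose about equally. The modifier subunit Gclm read 10.81, 10.92 and 11.01 in LPS and 12.67, 12.65 and 12.69 in SPIO-LPS, and the catalytic subunit Gclc read 8.46, 8.40 and 8.47 against 10.12, 10.10 and 10.13. Neither gene's arrays overlapped, and the rises were 3.38-fold and 3.18-fold. Sulfiredoxin Srxn1, which repairs overoxidized peroxiredoxins, read 9.72, 9.78 and 9.80 in LPS and 12.15, 12.00 and 12.07 in SPIO-LPS (4.95-fold, adjusted p = 2.12e-12 by limma). The glutathione transferase Gsta3, at 6.34, 6.60 and 6.44 in LPS, reached 8.83, 8.82 and 8.99 in SPIO-LPS, the largest rise of the list at 5.35-fold. The cystine importer Slc7a11 rose 2.68-fold, the autophagy receptor Sqstm1, which also binds KEAP1, 3.24-fold, and carbonyl reductase Cbr3 rose by 1.45 on the log2 scale. Smaller rises came from thioredoxin reductase Txnrd1 (1.05), catalase Cat (0.92), the pentose phosphate enzymes Pgd (0.92) and Taldo1 (0.80), and Nqo1 (0.75). Ephx1, Gstp1, Ugdh and Gstm5 were the 4 lower members, from -0.66 to -0.19. NRF2 itself (Nfe2l2) differed by 0.03 and was not called, and its inhibitor Keap1 rose by 0.19. In Silica-LPS against LPS, 7 members were higher and none lower, where the shares over all genes were 1.89% and 0.976%, and the list median was 0.09.

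The iron oxide effect on this list was larger with LPS than without it for 13 members and smaller for 4, where 3.73% and 5.07% of all genes had an interaction called above or below 0. Without LPS, 29 members were higher and 2 lower in SPIO against CON, beside 19.6% and 14.2% of all genes, with a median of 0.41. Gclc rose by 0.50 without LPS and by 1.67 with it, Cbr3 by 0.55 and 1.45, and Srxn1 by 1.21 and 2.31. Osgin1, an NRF2 target linked to growth arrest, differed by -0.05 without LPS (not called) and rose by 0.82 with it. The reverse order held for glutathione reductase Gsr, which rose by 0.93 without LPS and 0.52 with it, an interaction of -0.41 (adjusted p = 0.000859 by limma).

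Promoter letters are shown for members of 3 lists in which most genes rose, and for Procr, which is on none of these lists but among the largest rises, so that a match can be set beside the signal. Windows of 250 bases before to 50 after each RefSeq start (GRCm38.p6) were searched on both strands for the core of the antioxidant response element bound by NRF2 and BACH1, spelled TGACNNNGC. It was found in 12 of 46 windows of the NRF2 list (26.1%), 13 of 53 windows of the lysosome list (24.5%), 4 of 20 windows of the cholesterol list (20%), 16 of 73 windows of the genes that rose at least 2-fold (21.9%), 10 of 72 windows of those that fell at least 2-fold (13.9%) and 13.8% of the windows of all genes tested. Gsta3 (chr1:21240424-21240512, plus strand), Gclm (chr3:122245383-122245471, plus strand) and Procr (chr2:155751023-155751111, plus strand), the endothelial protein C receptor gene that rose 3.4-fold, each hold a match, in capitals below. That of Gclm lies on the opposite strand and is printed as its complement in reverse. The matches begin 121, 134 and 154 bases before the start sites. A match describes letters only and shows no binding.
Gsta3: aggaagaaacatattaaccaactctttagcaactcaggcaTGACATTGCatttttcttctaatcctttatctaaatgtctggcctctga
Gclm: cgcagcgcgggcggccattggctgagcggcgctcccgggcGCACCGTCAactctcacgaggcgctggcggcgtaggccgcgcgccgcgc
Procr: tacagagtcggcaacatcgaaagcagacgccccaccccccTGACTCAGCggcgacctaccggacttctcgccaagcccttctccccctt

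**Figure D2:**
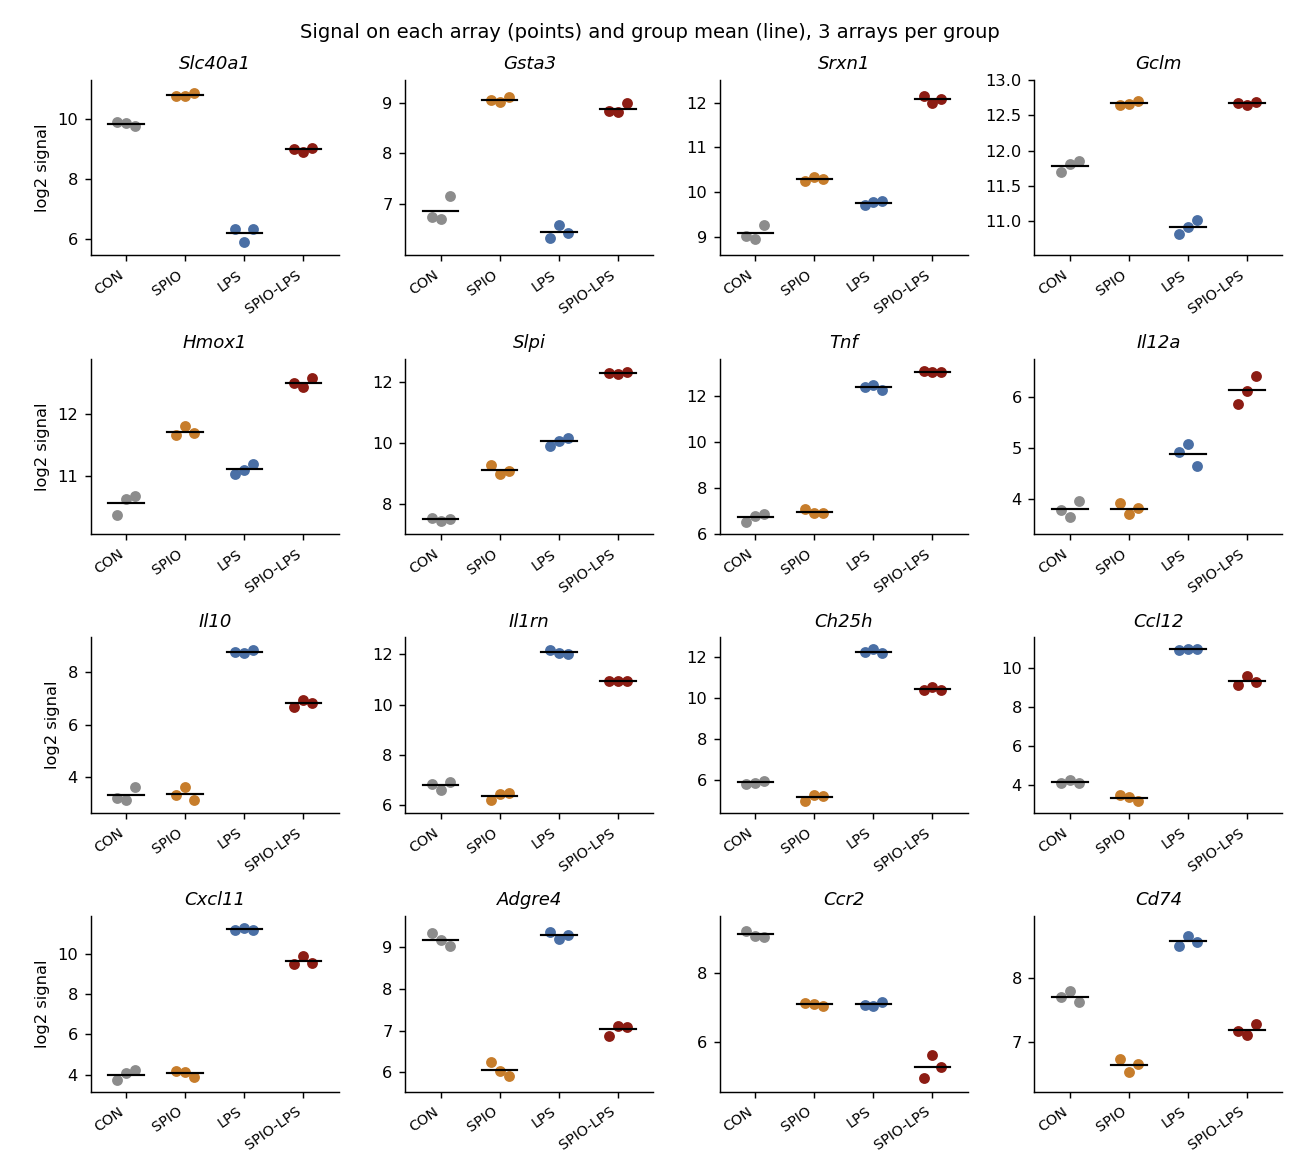
Log2 signal of 16 genes (vertical axes, each with its own range) on every array of CON, SPIO, LPS and SPIO-LPS; points are arrays, lines are means of 3. Slc40a1, Gsta3, Srxn1, Gclm, Hmox1, Slpi, Tnf and Il12a lie higher in SPIO-LPS than in LPS on all arrays, and Il10, Il1rn, Ch25h, Ccl12, Cxcl11, Adgre4, Ccr2 and Cd74 lie lower.

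Lysosomal genes rose broadly and by small amounts. Of 53 measured members 38 were higher and 3 lower, beside 18.2% and 14.6% of all genes, with a median of 0.31. Without LPS 42 were higher and 4 lower, beside 19.6% and 14.2% of all genes, with the same median of 0.31. Sortilin Sort1, which sorts hydrolases to the lysosome, had the largest rise, from 7.72, 7.80 and 7.89 to 8.94, 8.93 and 8.95. It was followed by the cholesterol exporter of the lysosome Npc1 (0.92), the heparan sulfate hydrolase Naglu (0.88) and alpha-galactosidase Gla (0.84), none of which had overlapping arrays. Of the subunits and accessory parts of the proton pump that acidifies the organelle, 9 were higher, among them Atp6v1a, which read 10.52, 10.51 and 10.60 in LPS and 11.36, 11.34 and 11.38 in SPIO-LPS (1.76-fold, adjusted p = 1.39e-09 by limma). Cathepsin D (Ctsd), the main aspartic protease, rose from 12.66, 12.65 and 12.69 to 13.30, 13.32 and 13.34. The 3 lower members were Acp5 (-0.48), Igf2r (-0.36) and Ctsc (-0.24), and Tfeb, which encodes the transcription factor named as master regulator of lysosomal genes, differed by 0.05 and was not called. In Silica-LPS against LPS 10 members were higher and none lower, beside 1.89% and 0.976% of all genes.

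The lysosomal E-box TCACGTGA, the palindrome bound by TFEB and its relatives, was found in 8 of 53 promoter windows of the list (15.1%) and in 1.47% of the windows of all genes tested. Its last letters TGA also begin the antioxidant element, so matches of the 2 motifs can overlap. Shown are Gla (chrX:134601153-134601240, minus strand), which holds 2 matches, Atp6v1a (chr16:44139344-44139431, minus strand) and Ctsd (chr7:142387879-142387966, minus strand), with the matches in capitals.
Gla: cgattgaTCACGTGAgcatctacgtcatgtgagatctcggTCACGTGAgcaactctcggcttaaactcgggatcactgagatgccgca
Atp6v1a: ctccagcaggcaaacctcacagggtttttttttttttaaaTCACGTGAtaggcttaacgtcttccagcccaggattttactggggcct
Ctsd: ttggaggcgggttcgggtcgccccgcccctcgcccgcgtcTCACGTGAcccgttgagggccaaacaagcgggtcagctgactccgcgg

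Cholesterol synthesis rose as a nearly complete pathway. Of 20 measured genes 18 were higher and none was lower, beside 18.2% and 14.6% of all genes, with a median of 0.69. Only Scap and Hsd17b7 were not called. Mvd, Fdps and Fdft1, which carry mevalonate toward squalene, rose most. Fdps, farnesyl diphosphate synthase, read 8.88, 8.88 and 8.88 in LPS and 10.05, 10.00 and 10.09 in SPIO-LPS, a rise of 2.24-fold without overlap, although its second, dim probe set was not called. Squalene epoxidase Sqle rose by 0.94, lanosterol synthase Lss by 0.91, and Hmgcs1, which makes the precursor of mevalonate, from 11.49, 11.48 and 11.46 to 12.22, 12.29 and 12.18. Srebf2, the gene of the controlling transcription factor SREBP2, rose by 0.43. Without LPS 18 genes were again higher and none lower, beside 19.6% and 14.2% of all genes, with a median of 0.64. No member had an interaction called, beside 3.73% above 0 and 5.07% below 0 over all genes. In Silica-LPS against LPS 11 of the 20 were higher, beside 1.89% of all genes, with a median of 0.33. Fdps differed by 0.43 there. The sterol regulatory element, searched as TCACNCCAC, was present in 1 of 20 windows of the list (5%) and in 1.22% of those of all genes tested, and that match is in Hmgcs1 (chr13:119690174-119690262, plus strand), shown with the match in capitals.
Hmgcs1: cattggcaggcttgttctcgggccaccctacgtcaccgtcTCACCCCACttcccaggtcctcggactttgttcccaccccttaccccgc

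Targets of the liver X receptor, which senses oxidized sterols, were split, with 8 of 16 higher and 6 lower. Over all genes 18.2% were higher and 14.6% lower. The ubiquitin ligase Mylip rose 2.02-fold, and fatty acid synthase Fasn and the desaturase Scd2 rose by 0.52 and 0.56. The cholesterol exporters Abcg1 and Abca1 were lower, at -0.65 and -0.24. Ch25h, which makes 25-hydroxycholesterol and is strongly induced by LPS, read 12.21, 12.36 and 12.16 in LPS and 10.35, 10.51 and 10.35 in SPIO-LPS. It fell 3.59-fold without overlap (adjusted p = 8.21e-11 by limma), from a CON level of 5.87. In the list of fatty acid handling (7 higher, 6 lower of 21), the lipid carriers Fabp3 and Fabp4 rose by 1.97 and 0.83, and Pdk4, the kinase that holds back glucose oxidation, dropped by 1.82.

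Cytokine genes moved in both directions, with more falls than rises and with inflammatory and inhibitory members on both sides. Of 23 measured genes 5 were higher and 11 lower, beside 18.2% and 14.6% of all genes, with a median of -0.16. Il10, the cytokine that restrains macrophage activation, read 8.78, 8.73 and 8.83 in LPS and 6.66, 6.95 and 6.84 in SPIO-LPS, a 3.9-fold fall (adjusted p = 1.51e-08 by limma). Its level was 3.33 in CON and 3.37 in SPIO, both near the lower end of the scale, where a difference can hardly be read, so the interaction of -1.997 ± 0.19 (adjusted p = 3.95e-06 by limma) adds little to the fall with LPS. The interleukin 1 receptor antagonist Il1rn, which blocks interleukin 1, fell from 12.18, 12.06 and 12.00 to 10.95, 10.94 and 10.95. Ebi3, a subunit of interleukins 27 and 35, differed by -0.71, the growth factors Vegfa and Csf1 by -0.998 and -0.64, and Ifnb1 (interferon beta) by -0.59. The inflammatory Il18 and the death ligand gene Tnfsf10 (TRAIL) were lower too, at -0.61 and -0.78. In the other direction, Tnf, at 12.37, 12.48 and 12.25 in LPS, read 13.09, 13.02 and 13.03 in SPIO-LPS. This was a 1.6-fold rise with no overlap (adjusted p = 1.18e-05 by limma). Il12a, the p35 subunit of interleukin 12, rose 2.38-fold from a low level, 4.93, 5.09 and 4.64 against 5.86, 6.13 and 6.42, whereas Il12b, the p40 subunit, differed by 0.17 (95% interval -0.14 to 0.47) and was not called. Il23a, the p19 subunit of interleukin 23, rose by 0.44, and Tgfb1, which encodes an inhibitory cytokine, by 0.21 (adjusted p = 0.0294 by limma). Il6 rose 1.3-fold (adjusted p = 0.0198 by limma). Without LPS replicate 3 or SPIO-LPS replicate 2 that p was 0.0705 or 0.0774, and 3 rather than 5 cytokines were higher when any array of these groups was left out. Il1b stood at 13.75 and 13.59, a difference of -0.16 (95% interval -0.33 to 0.02), and Il1a differed by 0.29 (-0.04 to 0.63). Neither was called, and Il1b lay near the top of the scale, where differences are compressed.

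Most chemokine genes were lower, while Cxcl1 and Cxcl2, which attract neutrophils, rose. Of 24 measured genes 13 were lower and 3 higher, beside 14.6% and 18.2% of all genes, with a median of -0.30. Without LPS 14 were lower and 1 higher, beside 14.2% and 19.6% of all genes, with a median of -0.54. In Silica-LPS against LPS, which shares the LPS arrays, 8 were lower and 1 higher, with a median of -0.045. The shares over all genes there were 0.976% and 1.89%. Ligands of the monocyte receptor CCR2 were among the lower ones: Ccl12 read 10.91, 10.94 and 10.96 in LPS and 9.09, 9.56 and 9.29 in SPIO-LPS, Ccl7 differed by -1.28 and Ccl2 by -0.71. Ccl3, Ccl4 and Ccl5, which attract monocytes through other receptors, differed by 0.18, -0.18 and -0.02 and were not called. Cxcl11 and Cxcl9, ligands of CXCR3, a chemokine receptor of T cells, differed by -1.56 and -0.91. Cxcl11 lay near the lower end of the scale in CON (4.00) and SPIO (4.06), where its difference was not called, and read 11.20, 11.32 and 11.23 in LPS against 9.54, 9.93 and 9.59 in SPIO-LPS. The third ligand of that receptor, Cxcl10, lay at 14.29 and 14.17, close to the top of the scale, and was not called (adjusted p = 0.601 by limma). The 3 higher members were Cxcl1 and Cxcl2, ligands of CXCR2, and Ccl20, a ligand of CCR6. Cxcl1 went from 12.31, 12.24 and 12.14 in LPS to 13.18, 13.20 and 13.26 in SPIO-LPS, a 1.98-fold rise, and Cxcl2 rose 1.32-fold. Both were lower in SPIO than in CON without LPS, by -0.86 and -1.28, so the iron oxide effect had the opposite sign there, with interactions of 1.85 and 1.68. Platelet basic protein Ppbp, whose product also binds CXCR2, and platelet factor Pf4, markers of megakaryocytes that macrophage cultures can also hold, differed by -1.96 and -0.73. Of 5 measured markers of that lineage these were the 2 lower ones. Itga2b and Gp9 differed by -0.04 and -0.02 and were not called, and Vwf, also an endothelial marker, rose by 2.29. The part of such cells in the result was not tested.

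Receptors for cytokines and chemokines were lower for 16 and higher for 4 of 32 measured genes, beside 14.6% and 18.2% of all genes. Ccr2, the monocyte receptor for the 3 lower ligands above, read 7.06, 7.04 and 7.16 in LPS and 4.96, 5.61 and 5.26 in SPIO-LPS, a 3.51-fold fall (adjusted p = 1.29e-08 by limma), and 2 of its 3 probe sets were called lower. It stood at 9.12 in CON and 7.09 in SPIO, so that LPS alone and iron oxide alone left it at nearly the same level and their combination lower still. Ccr1, a receptor for inflammatory CC chemokines, fell 2.86-fold, and the fractalkine receptor Cx3cr1 1.47-fold. Tnfrsf11b (osteoprotegerin, a soluble decoy for the osteoclast factor RANKL) ran from 6.87 to 7.79 in LPS and from 5.12 to 5.89 in SPIO-LPS, the widest spread among the largest falls. Il6ra and Il4ra, which bind interleukins 6 and 4, differed by -0.93 and -1.04. The interleukin 7 receptor Il7r rose by 0.68 and the decoy-like chemokine receptor Ccrl2 by 0.50. Csf1r, the receptor that macrophages need to survive, was at 13.69 and 13.59, a 1.07-fold fall whose call was lost under 10 of 14 alternatives. That probe set lies near the top of the scale, and the other 2 probe sets of the gene, at 12.60 and 11.45 in LPS, differed by -0.26 and -0.38 (adjusted p = 0.00019 and 0.00016 over all probe sets by limma).

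In the list of scavenger and phagocytic receptors, 22 of 42 measured genes were lower and 11 higher, with a median of -0.21. The list also holds secreted proteins, such as C1qa and Gas6, and the lysosomal Cd68. Over all genes 14.6% were lower and 18.2% higher. The adhesion receptor Adgre4 (F4/80-like, found on macrophages) read 9.37, 9.20 and 9.29 in LPS and 6.88, 7.11 and 7.10 in SPIO-LPS, the largest fall of the whole comparison. The Fc receptors Fcgr4, Fcgr1 and Fcgr3, which bind antibody-coated particles, differed by -1.61, -0.87 and -0.72. The mannose receptor Mrc1 differed by -0.95, the complement components C1qa, C1qb and C1qc by -0.82, -0.43 and -0.49, and the scavenger receptor Msr1 by -0.44. Other receptors rose: Clec4n (dectin 2, a sensor of fungal mannans) 2.01-fold, Clec7a (dectin 1) by 0.53, Cd36 by 0.43, Trem2 by 0.36 and Marco by 0.33. Cd68, a lysosomal glycoprotein used as a macrophage marker, rose by 0.36.

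Most MHC class II genes fell. Cd74, the invariant chain that guides class II molecules, read 8.50, 8.65 and 8.56 in LPS and 7.18, 7.12 and 7.29 in SPIO-LPS, a 2.59-fold fall without overlap (adjusted p = 3.58e-10 by limma). H2-Aa, H2-Eb1, H2-Ab1 and H2-DMa differed by -1.36, -1.31, -1.07 and -0.90. With the costimulator Cd86 (-0.50) and the maturation marker Cd83 (-0.59) these made up the 7 lower genes of 19. Cd274 (PD-L1, which restrains T cells), Cd48 and Havcr2 (TIM-3) were the 3 higher ones. Over all genes 14.6% were lower and 18.2% higher. Cd274 rose by 0.98 without LPS and 0.28 with it. H2-Oa was not called (-0.29), and Ciita, the gene of the class II transactivator, lay near the lower end of the scale at 4.31 and was not called either. Without LPS the class II genes fell by similar amounts, for example -1.31 for H2-Aa, and in Silica-LPS against LPS, which shares the LPS arrays, H2-Aa differed by -0.53 and Cd74 by -0.59. Genes of alternative activation, the state driven by interleukin 4, were lower for 11 and higher for 3 of 22, with a fall of the eosinophil chemokine Ccl24 (-1.02) and a rise of the inhibitory receptor Cd200r1 (0.95). Arg1, the arginase of that state, was lower here (-0.65), a call lost without LPS replicate 3 (-0.59, adjusted p = 0.0549) or SPIO-LPS replicate 3 (-0.54, adjusted p = 0.0727 by limma), and differed by 0.98 in Silica-LPS against LPS.

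More interferon-stimulated genes were lower after iron oxide without LPS than with it. With LPS, 16 of 43 measured members were lower and 3 higher, beside 14.6% and 18.2% of all genes, with a median of -0.15. Without LPS, 35 were lower and 1 higher in SPIO against CON, beside 14.2% and 19.6%, with a median of -0.46. The interaction was called above 0 for 19 members and below 0 for 1, beside 3.73% and 5.07% of all genes. All 43 members were higher in LPS than in CON, with a median of 3.49. Differences are compressed near the top of the scale, and the part of this in the smaller differences with LPS was not tested. Ifit3, an RNA-binding antiviral protein, stood at 7.70 ± 0.12 in CON and 6.39 ± 0.10 in SPIO, and read 13.04, 13.13 and 13.02 in LPS and 12.82, 12.97 and 12.79 in SPIO-LPS. Its difference of -1.30 without LPS thus became -0.20 with LPS (not called), an interaction of 1.10 (adjusted p = 8.57e-05 by limma). Irf7, the amplifier of interferon production, differed by -1.22 without LPS and -0.36 with it. Rsad2 (viperin) differed by -1.10 without LPS and 0.03 with it, but lay at 14.26 in LPS, near the top of the scale. Among members that fell with LPS were Iigp1 (-0.82), Eif2ak2 (PKR, -0.69) and Stat2 (-0.43); Iigp1 lost its call without LPS replicate 2 (-0.77, adjusted p = 0.0557) or SPIO-LPS replicate 3 (-0.71, adjusted p = 0.0693 by limma). Irf8, a transcription factor of the macrophage lineage, went the other way from the rest. It rose by 0.29 without LPS and read 10.01, 10.05 and 10.06 in LPS against 9.01, 9.21 and 9.04 in SPIO-LPS, the 1 member with an interaction below 0 (-1.24). No member was called in Silica-LPS against LPS by limma.

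**Figure D3:**
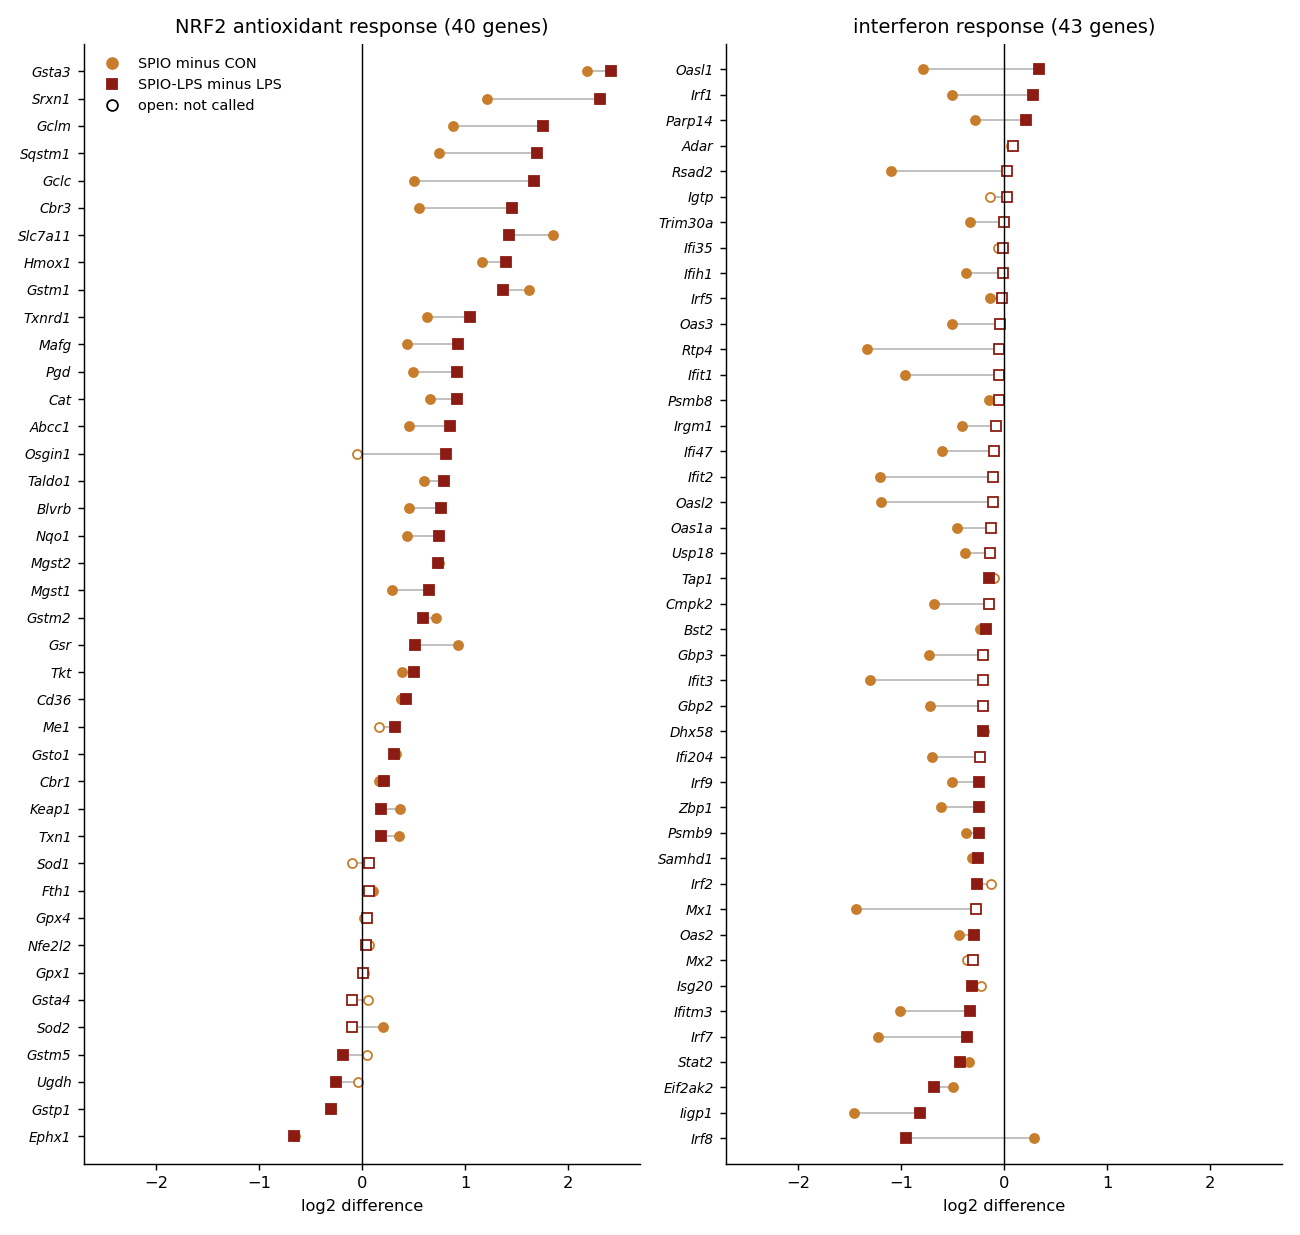
Log2 difference after iron oxide (horizontal axes) without LPS (circles, SPIO minus CON) and with LPS (squares, SPIO-LPS minus LPS) for 40 NRF2 and 43 interferon genes; filled symbols were called. NRF2 genes lie to the right under both conditions (medians 0.41 and 0.62), while interferon genes lie to the left without LPS (median -0.46) and near 0 with it (median -0.15).

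Receptors and adaptors of the LPS pathway differed by small amounts, apart from Tlr1. Of 18 measured genes 6 were higher and 4 lower, with a median of 0.004, beside 18.2% and 14.6% of all genes. Tlr4 rose 1.17-fold, from 7.90, 7.77 and 7.78 to 8.02, 7.98 and 8.12. Its helper Cd14 was at 13.65 in LPS and 13.62 in SPIO-LPS, a difference of -0.02 with a 95% interval of -0.11 to 0.06. Without LPS Cd14 had differed by -0.80. Its levels with LPS lay near the top of the scale, where differences are compressed. The part of this in the smaller difference was not tested. Tlr1, Tlr3 and the adaptor Myd88 were lower, at -0.81, -0.46 and -0.21. The 6 rises were small, at most 0.22, and fell to 2 with the arrays of the compared groups alone and to 3 without LPS replicate 3.

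Several feedback inhibitors of the LPS signal were lower. Of 22 genes of NF-kB subunits and feedback 9 were lower and 3 higher, with a median of -0.09. Over all genes 14.6% were lower and 18.2% higher. Without LPS 10 of the 22 were lower and 3 higher, beside 14.2% and 19.6% of all genes, with a median of -0.22. The MAP kinase phosphatase Dusp1, which ends the p38 signal, read 11.85, 11.86 and 11.84 in LPS and 10.67, 10.75 and 10.59 in SPIO-LPS, and Dusp2 read 10.70, 10.67 and 10.75 against 9.30, 9.47 and 9.24. The falls were 2.27-fold and 2.59-fold, both without overlap. Socs1, an inhibitor of cytokine receptors, differed by -0.74, Bcl3 by -0.67, Zfp36 (tristetraprolin, which destabilizes cytokine transcripts) by -0.54 and Socs3 by -0.34. The subunits Rela and Nfkb2 and the inhibitors Nfkbia and Tnfaip3 differed by 0.13, 0.03, -0.10 and -0.04 and were not called.

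Genes of the cell cycle fell almost as a block. Of 44 measured genes 36 were lower and 3 higher, beside 14.6% and 18.2% of all genes, with a median of -0.61. Cenpe, a kinetochore motor, fell 3.23-fold, cyclin D1 (Ccnd1) 2.07-fold, and Rrm2, a subunit of ribonucleotide reductase, went from 9.70, 9.70 and 9.74 to 8.81, 8.84 and 8.87. Mki67, the proliferation marker, was 1 of the 3 higher members, at 0.40, with Pcna (0.15) and Cdt1 (0.29). Without LPS 36 genes were lower and 1 higher, beside 14.2% and 19.6% of all genes, with a median of -0.50. Only Ccnd2 and Mki67 had an interaction called, beside 3.73% above 0 and 5.07% below 0 over all genes. Among 22 p53 targets and cyclin inhibitors 11 were lower and 6 higher. The polo-like kinase Plk2 rose 3.02-fold, from 9.56, 9.60 and 9.61 to 11.23, 11.13 and 11.20. The cyclin inhibitor Cdkn2b (p15), which was not on the list, rose 3.04-fold, and Cdkn1a (p21) rose by 0.29. Cdkn1b (p27) and Cdkn2d (p19) were lower, at -0.52 and -0.59. Beside these falls, 11 of 14 fibroblast markers and 7 of 12 neutrophil and precursor markers were lower too, such as Mgp (-1.54), Cxcl12 (-1.06), S100a9 (-0.61) and Ngp (-0.55). The fibroblast genes Col1a1 and Col3a1 differed by -0.01 and -0.10 and were not called, and the neutrophil collagenase Mmp8 rose by 1.06. The part of such cells in the result was not tested.

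Arginine, prostaglandin and glucose enzymes moved in both directions. The inducible nitric oxide synthase Nos2 was low and differed by -0.49, while Arg2, the mitochondrial arginase, and the arginine importer Slc7a2 rose by 1.09 and 0.65. Acod1, which makes itaconate, was at 14.02 and 14.02 (95% interval of the difference -0.21 to 0.21) near the top of the scale. Cyclooxygenase 2 (Ptgs2) differed by -0.22 (adjusted p = 0.0534 by limma), and 5 of 14 alternatives called it lower. Of 23 genes of glycolysis and hypoxia 13 were higher and 4 lower, with a median of 0.26. Over all genes 18.2% were higher and 14.6% lower. Aldolase Aldoa rose by 0.60, pyruvate kinase Pkm by 0.44 and the oxygen sensor Egln3 by 0.94. Pfkfb3, which makes the strongest activator of phosphofructokinase, went against them, from 11.32, 11.22 and 11.22 in LPS to 9.75, 9.78 and 9.70 in SPIO-LPS, a 2.84-fold fall. Without LPS it had risen by 0.27, and the interaction was -1.78 (adjusted p = 3.3e-10 by limma).

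Secreted inhibitors and clotting genes gave several of the largest changes. Slpi, an inhibitor of neutrophil elastase that also restrains NF-kB, read 9.91, 10.06 and 10.17 in LPS and 12.29, 12.25 and 12.31 in SPIO-LPS, a 4.71-fold rise (adjusted p = 2.12e-11 by limma). Procr, the protein C receptor, read 9.22, 9.31 and 9.22 against 10.99, 10.92 and 11.13, and Vwf (von Willebrand factor, a marker of endothelium and platelets) read 4.94, 4.65 and 5.05 against 7.11, 7.19 and 7.19. The other endothelial markers did not rise with Vwf: of 7 markers, 3 were lower and 1, Vwf, higher, beside 14.6% and 18.2% of all genes. In LPS 6 of the 7 lay below 5. Cdh5 differed by -0.58, but its second, dim probe set differed by 0.07 and was not called. Pecam1 (-0.23), also lower, lost its call under several alternatives. Serpinb2, an inhibitor of plasminogen activators, fell 2.09-fold, the transglutaminase F13a1 2.11-fold and the thrombin receptor F2r 3.57-fold. Fgl2, a prothrombinase of activated macrophages, ran from 8.32 to 8.93 in LPS and from 6.58 to 6.96 in SPIO-LPS, and its difference without LPS was -0.28 (not called).

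The remaining large rises were genes of mixed function. Bex1, an adaptor best known from neurons, ran from 2.53 to 3.27 in LPS, at the lower end of the scale, and from 4.82 to 5.65 in SPIO-LPS. Afp, the fetal plasma protein alpha-fetoprotein, went from 6.49, 6.50 and 6.18 to 8.63, 8.58 and 8.86, with 4 of its 5 probe sets called higher. Tent5c, a poly(A) polymerase that stabilizes secretory transcripts, rose 4.98-fold, the membrane channel Panx1 3.56-fold and the proton channel Hvcn1, which sustains the oxidative burst, 3.24-fold. Rabgap1l, a regulator of membrane traffic, rose 4.26-fold through 1 of its 2 probe sets; the other was dim, at 3.77, and was not called. None of these genes had overlapping arrays, but that was a condition for being named among the largest rises.

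Most of the differences after iron oxide were also present without LPS. SPIO against CON, which shares no array with SPIO-LPS against LPS, gave 2431 higher genes (19.6%) and 1758 lower genes (14.2%). Of these, 1471 were higher in both comparisons, which is 65.3% of the genes higher with LPS and 60.5% of those higher without it. A further 1057 were lower in both, 58.6% and 60.1% of the respective lists. Only 43 genes were higher with LPS and lower without it, and 84 were lower with LPS and higher without it. Of the 69 genes that rose at least 2-fold with LPS, 60 were called higher without it and 3 lower, and of the 80 that fell at least 2-fold, 67 were called lower and 1 higher. Opposite signs were found for Cxcl1 and Cxcl2 above, and for Plk2 and the aryl hydrocarbon receptor gene Ahr. Ahr differed by -0.42 without LPS and went from 7.44, 7.15 and 7.34 in LPS to 8.57, 8.44 and 8.62 in SPIO-LPS, which its second, dim probe set did not share.

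The size of the effect itself depended on LPS for 1090 genes. The interaction, tested as the difference between the iron oxide effects with and without LPS, was called above 0 for 462 genes (3.73%) and below 0 for 628 (5.07%). Plk2 led the first group at 1.94 ± 0.062 and Il10 the second at -1.997 ± 0.19; the value of Il10 rests on levels without LPS near the lower end of the scale, and the next gene, Pfkfb3, was measured well above it in all groups. Rabgap1l rose by 0.19 without LPS and by 2.09 with it. The metallothioneins, small proteins that bind zinc and copper, changed sign: Mt2 rose by 0.23 without LPS and read 12.47, 12.33 and 12.26 in LPS against 11.58, 11.52 and 11.54 in SPIO-LPS, and Mt1 rose by 0.40 and then fell by 0.47. The call of Mt1 was lost when its 2 probe sets were averaged (-0.18, adjusted p = 0.0631 by limma). Bst1, an ectoenzyme that cleaves NAD, rose by 1.84 without LPS and 0.47 with it. Adgre4 and Ppbp, both at 6.07 or lower in SPIO, had interactions above 0, meaning that their falls were smaller with LPS (-3.11 without and -2.25 with LPS for Adgre4).

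**Figure D4:**
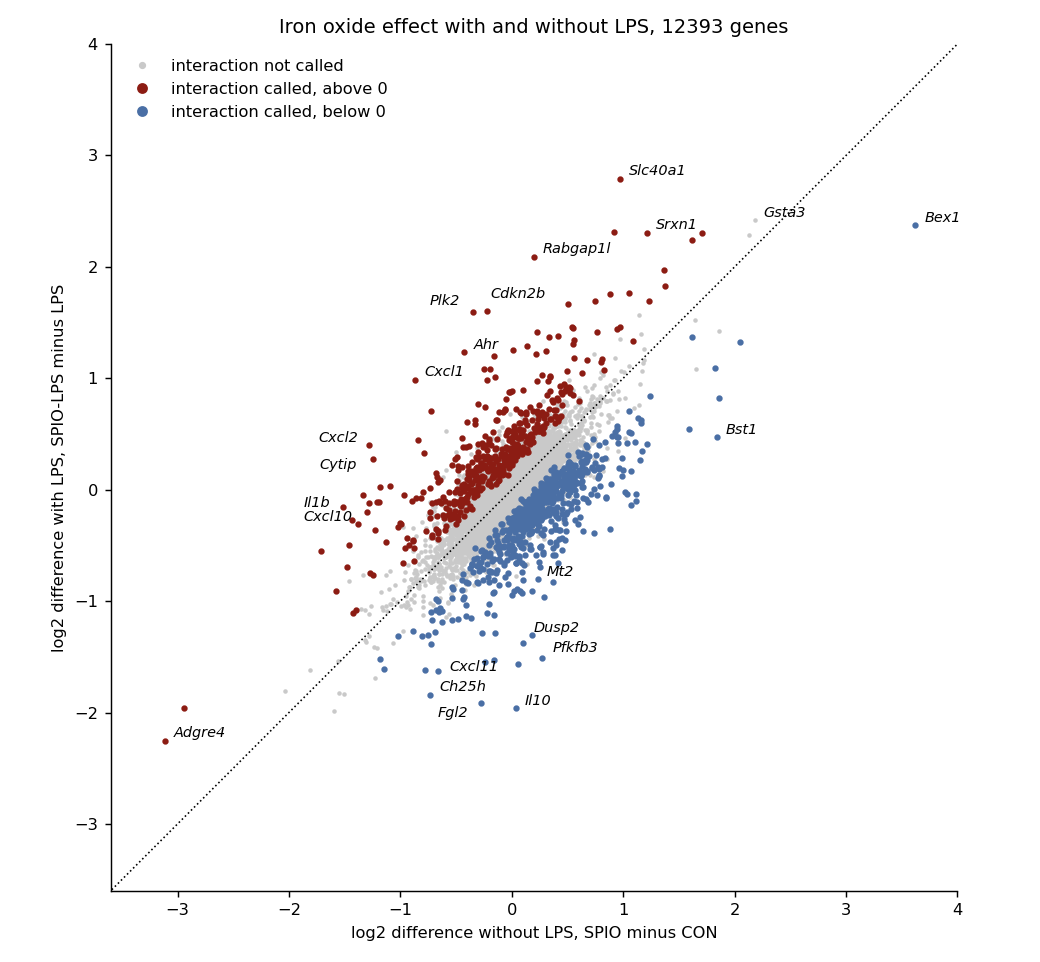
Log2 difference after iron oxide with LPS (vertical axis, SPIO-LPS minus LPS) against that without LPS (horizontal axis, SPIO minus CON) for 12393 genes; the dotted line marks equal effects. Red points had an interaction called above 0 (Plk2, Cxcl1 and Slc40a1 among them) and blue points below 0 (Il10, Pfkfb3 and Cxcl11 among them); Il10 lies near 0 on the horizontal axis at 0.04 and at -1.96 on the vertical axis.

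The genes that LPS itself raises were shifted downward on balance. To keep the choice apart from the LPS and SPIO-LPS arrays, LPS-responsive genes were taken from Silica-LPS against Silica. Of 286 genes that rose at least 4-fold there, 113 (39.5%) were lower and 54 (18.9%) higher in SPIO-LPS than in LPS, with a median of -0.14, beside 14.6% and 18.2% of all genes. Of 112 genes that fell at least 4-fold there, 35 (31.2%) were higher and 21 (18.8%) lower, with a median of 0.02; after cyclic loess 21 rather than 35 were higher. With a threshold of 2-fold, 240 of 679 raised genes were lower and 141 higher, and 224 of 737 lowered genes were higher and 132 lower. The median was -0.05 for genes raised 1 to 2 on the log2 scale, -0.12 for 2 to 3, -0.13 for 3 to 4 and -0.17 above 4. The share of lower genes over the same ranges was 32.3%, 39.5%, 41.9% and 37.5%, and no trend was tested. Within the raised genes the differences ran in both directions, as the falls of Il10 and Ch25h and the rises of Tnf, Cxcl1 and Slpi show.

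Silica pretreatment gave a much smaller set of differences from LPS alone. Silica-LPS against LPS, which shares the LPS arrays with the comparison described here, had 234 genes higher (1.89%) and 121 lower (0.976%), and none by 2-fold. Tested directly, SPIO-LPS was higher than Silica-LPS for 1514 genes (12.2%) and lower for 1599 (12.9%). Slc40a1 was 7.37-fold higher in SPIO-LPS than in Silica-LPS, Srxn1 3.9-fold and Gsta3 3.53-fold, and Il10 was 3.02-fold lower. Ccr2, P2ry12 (an ADP receptor of resident macrophages) and Arg1 were also among the genes lowest against silica, at -1.69, -1.42 and -1.63. The cholesterol gene Hmgcs1 differed from LPS by 0.41 in Silica-LPS and by 0.75 in SPIO-LPS, and the direct difference of 0.34 was called (adjusted p = 1.43e-05 by limma). The particles differed in material and in size, 33 nm against 50 nm, which cannot be told apart here.

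**Figure D5:**
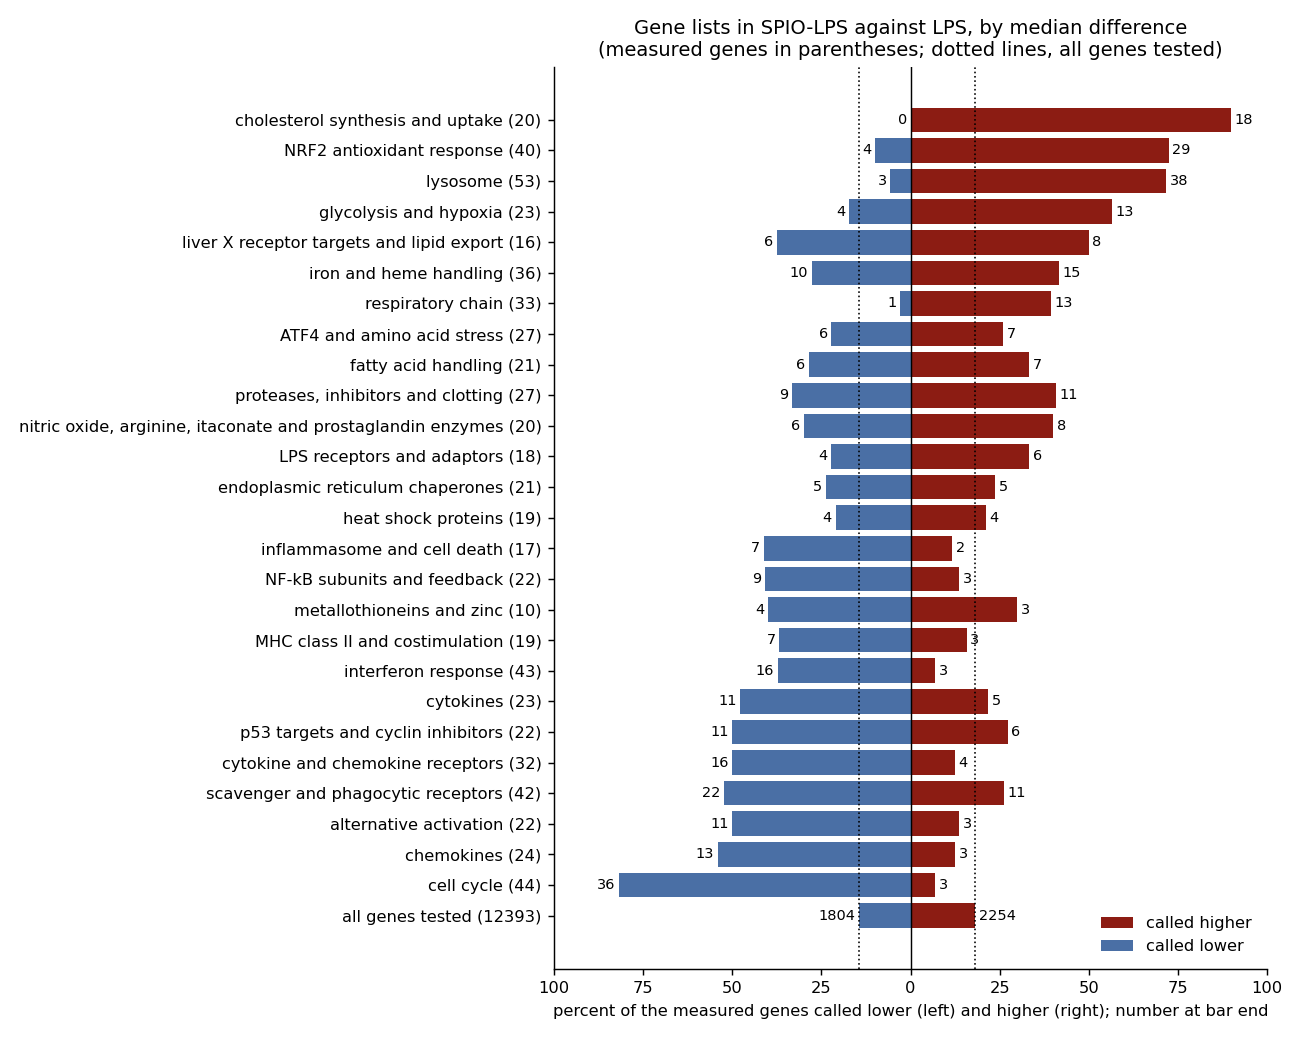
Percent of the measured genes of 26 lists called higher (right, red) and lower (left, blue) in SPIO-LPS against LPS, with gene numbers at the bar ends; dotted lines mark the shares over all genes tested (18.2% and 14.6%). Cholesterol synthesis (18 of 20 higher), the NRF2 program (29 of 40) and the lysosome (38 of 53) lie at the top and the cell cycle (36 of 44 lower) at the bottom, above the bar of all genes.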

How the data were processed

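RNA from 18 macrophage cultures, 3 per group, was hybridised to 1 Affymetrix mouse array each. The deposited table held log2 signals of 22690 probe sets made by the authors with RMA, per the submitters' processing notes; RMA corrects background, equalizes the distributions of the arrays and compresses differences near both ends of the scale. The software version used for it is not given in the sources used here, and the values were used as deposited. After removal of 64 control probe sets, 20380 of 22626 had 1 gene symbol in the platform annotation, 691 had several and 1555 had none. Symbols were updated through gene identifiers for 20351, and the probe set with the highest mean was kept for each of 12393 genes, 4956 of which had more than 1.

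A linear model of all 6 groups was fitted with limma 3.58.1 in R 4.3.3 (lmFit, contrasts.fit, eBayes), and p-values were adjusted by the Benjamini-Hochberg method over all genes of each contrast; a gene was called at an adjusted p below 0.05. Tables were made with Python 3.11.15 and pandas 2.3.3, exact permutation tests with scipy 1.17.1 and figures with matplotlib 3.10.9. In data simulated for SPIO-LPS against LPS over 12393 genes, the fit recovered 24% of changes of 0.25, 88% of 0.5, 98% of 1 and 100% of 2 on the log2 scale, with 10 false calls. That simulation changed 50 genes at each size, gave all groups the LPS mean and used independent normal noise. In the data 32.7% of genes were called, a far larger share, so these rates need not hold there. Precision is limited by having 3 arrays per group. Replicate numbers were not used as pairs. Alternatives were a replicate block, the compared arrays alone, a robust prior with a trend in the variance, removal of the dimmest 33.3% of genes, the mean of probe sets, every probe set, cyclic loess, array weights and each array left out.

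Members, the 26 gene lists and the 11 marker lists were chosen with earlier results of these data known. Genes were named by this rule: the 15 largest rises and falls without overlap, up to 6 called genes of each list, 34 fixed genes (33 measured) and the 10 largest each way for the interaction and against Silica-LPS. The following list members fell outside it and were chosen after their values were seen: Abca1, Atf4, Blvrb, C1qa, C1qb, C1qc, Casp1, Cat, Ccl20, Ccl3, Ccl4, Ccl5, Ccrl2, Cd274, Cd48, Cd83, Cd86, Cdkn1a, Cdt1, Ciita, Clec7a, Col1a1, Col3a1, Csf1, Ctsc, Ctsd, Cxcl9, Ebi3, Ephx1, Fcgr3, Gp9, Gsr, Gstm5, Gstp1, H2-Oa, Hmgcs1, Hsd17b7, Ifit3, Ifnb1, Igf2r, Il18, Il23a, Itga2b, Keap1, Marco, Mki67, Msr1, Myd88, Nfe2l2, Nfkb2, Nfkbia, Nlrp3, Osgin1, Pcna, Pgd, Pkm, Rela, Rsad2, Scap, Slc11a1, Socs3, Srebf2, Taldo1, Tfeb, Tgfb1, Tnfaip3, Trem2, Txnrd1 and Ugdh.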

Additional observations from a re-analysis of the deposited data

Results flagged for a closer look

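For 20 genes the iron oxide effect differed between cultures with and without LPS by a test of the difference itself, with the largest interactions among those called by limma. Above 0 were Plk2 (1.94), Rabgap1l (1.90), Cxcl1 (1.85), Cdkn2b (1.83), Slc40a1 (1.82), Cxcl2 (1.68), Ahr (1.66), the adaptor Cytip (1.52), the noncoding RNA Lncpint (1.44) and Tent5c (1.39). Below 0 were Il10 (-1.997), Pfkfb3 (-1.78), Fgl2 (-1.63), Cxcl11 (-1.62), Tha1 (-1.48), Dusp2 (-1.47), Rassf2 (-1.37), Bst1 (-1.37), Lipg (-1.31) and Bex1 (-1.25). All are log2 differences of differences. Il10 (3.33 and 3.37), Cxcl11 (4.00 and 4.06) and Lipg (4.32 and 4.07) lay near the lower end of the scale in CON and SPIO, and Bex1 lay there in CON (3.40) and LPS (2.92), so these 4 interactions and their ranks set a measured difference against one that can hardly be read.

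Probe sets without a single gene name, which entered no list, also held differences between SPIO-LPS and LPS. Of 1555 with no symbol, 293 (18.8%) were called (154 higher and 139 lower). Of 691 with several symbols, 207 (30%) were called (89 higher and 118 lower). Both shares were below the 32.7% called among all genes tested. The largest rise among those with no symbol, 3.11 from 7.23 to 10.35, exceeded that of Slc40a1, and their largest fall, -2.20 from 7.60 to 5.40, was smaller than that of Adgre4 and larger than those of all other named genes.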

How the results depend on the processing

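Of 212 called genes named by the rule, 182 kept their call and direction under all 14 alternatives and 29 lost the call under at least 1. Bcl2l1, an inhibitor of cell death, turned from -0.29 to 0.0194 (not called) with the mean of its probe sets; the cause was not tested. Acod1, never called, moved from 0.00 to -0.0441 with cyclic loess, -0.0039 with array weights, and between -0.0159 and 0.0166 with arrays left out. With the 6 compared arrays alone, which leaves fewer arrays to estimate the spread, 1477 genes were higher, and 12 rather than 21 genes lowered by LPS were lower. With every probe set, which tests more features, 2795 were lower, 131 of them at least 2-fold. With cyclic loess, 21 rather than 35 of the genes lowered by LPS were higher. At an LPS response of 2-fold, 141 raised genes were higher and 240 lower, and 224 lowered genes were higher and 132 lower. Leaving out an array gave 1787 to 2309 higher and 1597 to 1677 lower genes, and an interaction above 0 for 379 to 508 and below 0 for 500 to 606. Of 36 list counts of 5 or more genes, 4 moved by over 1.5 times: LPS receptors higher (6 to 2 or 3), cytokines higher (5 to 3), respiratory chain higher (13 to 3 or 8) and endoplasmic reticulum chaperones lower (5 to 3).

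With the replicate block, 2216 genes were higher and 1766 lower, and the interaction was above 0 for 420 and below 0 for 595. Same-numbered LPS and SPIO-LPS arrays had deviations that correlated at -0.089, 0.092 and -0.013, and unlike numbers ran from -0.17 to 0.187. For CON and SPIO the same-numbered values were 0.126, 0.03 and 0.089, and unlike numbers ran from -0.123 to 0.045. With 3 arrays per group, these values cannot decide whether the numbers pair the cultures.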

Other observations

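Stress programs other than that of NRF2 were split. Of 27 measured ATF4 and amino acid stress genes 7 were higher and 6 lower, beside 18.2% and 14.6% of all genes. Ppp1r15a (GADD34), which directs the removal of phosphate from the translation factor eIF2, read 9.24, 9.29 and 9.35 in LPS and 10.69, 10.72 and 10.86 in SPIO-LPS, a 2.75-fold rise without overlap (adjusted p = 6.18e-11 by limma). Cth, which makes cysteine from cystathionine, rose by 0.83. The serine synthesis genes Psat1 and Phgdh differed by -0.52 and -0.49, and Atf4 itself was not called (0.07). Of 21 endoplasmic reticulum chaperone genes 5 were higher and 5 lower, with the oxidase Ero1a at 0.66 and the stress-induced Herpud1 at -0.33. Of 19 heat shock genes 4 were higher and 4 lower, led by Hspa4l (0.63) and Hspa1b (-0.47); Hspa1b lost its call without LPS replicate 1 (-0.35, adjusted p = 0.0543 by limma).

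Respiratory chain genes gave small differences: 13 of 33 were higher and 1 was lower (Cycs, cytochrome c, at -0.29), beside 18.2% and 14.6% of all genes. The 13 were 8 without LPS replicate 2 or SPIO-LPS replicate 3, and Cycs lost its call under 8 of 14 alternatives, although its other 2 probe sets were called lower by similar amounts. Chchd10, a protein of the mitochondrial intermembrane space, stood apart from them, with 7.39, 7.25 and 7.19 in LPS and 8.55, 8.55 and 8.71 in SPIO-LPS, a 2.5-fold rise. The other 12 rises were at most 0.24. Of 17 inflammasome and cell death genes 7 were lower and 2 higher; the adaptor Pycard (ASC) differed by -0.59, while Nlrp3 and Casp1 were not called (0.22 and -0.03). Of 10 metallothionein and zinc genes 3 were higher and 4 lower, the zinc exporter Slc30a1 rising by 0.45 and the importer Slc39a8 differing by -0.59.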
